A study of Mus musculus with 6 samples.

Results

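The receptors of bone morphogenetic proteins (BMPs) and their Id target genes were followed through single-cell RNA sequencing (scRNA-seq) of injured mouse Achilles tendon. The group held 10 of the 33696 genes in the count tables, chosen by symbol: the type I receptor genes Acvr1 (ENSMUSG00000026836), Acvrl1 (ENSMUSG00000000530), Bmpr1a (ENSMUSG00000021796) and Bmpr1b (ENSMUSG00000052430), the type II receptor genes Bmpr2 (ENSMUSG00000067336), Acvr2a (ENSMUSG00000052155) and Acvr2b (ENSMUSG00000061393), and Id1 (ENSMUSG00000042745), Id2 (ENSMUSG00000020644) and Id3 (ENSMUSG00000007872). All animals carried Gli1-CreERT2, a tamoxifen-inducible Cre driven by Gli1, and the Ai9 red fluorescent reporter, and all had received tamoxifen. Tendons were uninjured or taken at 7 or 21 days after tenotomy (dpi), and cells were sorted into reporter-positive (Gli1+) and reporter-negative (Gli1-) fractions, which gave 6 libraries, 1 for each condition. Each library came from a group of mice whose cells carry no record of the animal, and no age is given in the labels. Gli1+ and Gli1- below name the libraries labelled so. The Gli1 transcript itself did not separate them: mesenchymal-like cells labelled Gli1+ held 13.9, 2.16 and 3.82 UMI counts per 1000000 (CPM) before injury, at 7 dpi and at 21 dpi, and those labelled Gli1- held 9.61, 2.63 and 3.87 CPM.

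BMPs bind a complex of type I and type II receptors, serine/threonine kinases in which the type II receptor activates the type I receptor. The activated type I receptor phosphorylates SMAD1, SMAD5 and SMAD9, which enter the nucleus with SMAD4 and switch on Id1, Id2 and Id3, inhibitors of basic helix-loop-helix transcription factors. Activating mutations of human ACVR1 cause fibrodysplasia ossificans progressiva, in which tendon and muscle turn into bone, and tenotomy of the Achilles tendon is a mouse model of ossification in tendon.

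A level is the number of unique molecular identifiers (UMIs) of a gene per 1000000 UMIs, both added up over the cells of a type. Brackets hold 95% intervals, exact Poisson for levels and conditional binomial for log2 ratios, and cover counting error only. Since a condition had 1 library, conditions could not be tested against each other. The libraries held 53564928 to 107887022 UMIs in 7057 to 10882 kept cells, with medians of 4297 to 9775 UMIs per cell, and 0.974% to 1.32% of kept cells had a barcode found in another library. Mesenchymal-like cells, named from their markers, numbered 2416, 6982 and 7752 for Gli1+ and 5783, 7969 and 7201 for Gli1-, and values for 3 libraries of a sort always stand in order of time. The other named types were chondrocyte-like, mural-like, blood and lymphatic endothelial-like, epidermal-like, Schwann-like, lymphoid-like and myeloid-like, so that the labelled tendon cells were a mixture. The sex of the cells changed with time, and before injury it differed between the sorts, although the labels give an equal sex distribution. Xist without Y-linked UMIs was found in 60.3%, 0.0143% and 92.9% of Gli1+ and 0%, 0.0125% and 93.9% of Gli1- mesenchymal-like cells. Ratios within cells of 1 sex were taken where both libraries held at least 50 such cells, 60 in all. Of these, 3 had the opposite sign from the ratio over all mesenchymal-like cells (Acvr2a in Gli1+ cells at 7 dpi, Bmpr1b in Gli1+ cells at 21 dpi and Acvr2b between the sorts at 21 dpi) and 2 fell on the other side of 1.5-fold (Bmpr1b in Gli1+ and Id2 in Gli1- cells at 7 dpi). None could be had for Gli1- cells at 21 dpi over uninjured, where time and sex cannot be told apart. Libraries also differed in Cntn5, at 1.80, 173 and 0.570 CPM for Gli1+ and 654, 206 and 0.387 CPM for Gli1- over kept cells, and what that difference has to do with the members was not tested.

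In the Gli1+ sort, Acvr1 differed more between times over whole libraries than within mesenchymal-like cells. Over all kept cells Acvr1 stood at 42.4, 91.4 and 83.0 CPM for Gli1+ and at 60.7, 91.2 and 85.6 CPM for Gli1-. The uninjured Gli1+ library was the lowest. Lymphoid-like cells, which had 6.61 CPM of Acvr1, made up 42.6% of its cells, and no other library held 50 of them. Within Gli1+ mesenchymal-like cells Acvr1 stood at 80.3 CPM [76.6, 84.1], 95.6 [93.4, 97.9] and 86.7 [84.6, 88.8]. The log2 ratio at 7 dpi over uninjured was then 0.25 [0.18, 0.33], where all kept cells gave 1.11, and at 21 dpi it was 0.11 [0.04, 0.19], where all kept cells gave 0.97. With the other scaling described further on, the ratios in these mesenchymal-like cells were 0.55 and 0.57. Gli1- mesenchymal-like cells held 56.4 CPM [54.0, 58.8] before injury, 91.5 [89.7, 93.4] at 7 dpi and 89.6 [87.4, 91.9] at 21 dpi, log2 ratios of 0.70 [0.63, 0.77] and 0.67 [0.60, 0.74]. After injury the levels of the 2 sorts lay within a log2 ratio of 0.06 of each other, and the uninjured Gli1- cells were the lowest of the 6.

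Before injury, tenocyte-like cells held more Acvr1 than mesenchymal-like cells of no subtype, with 111.7 against 71.6 CPM in the Gli1+ sort and 133.3 against 56.0 CPM in the Gli1- sort, log2 ratios of 0.64 [0.49, 0.79] and 1.25 [1.01, 1.48]. This order was absent at 7 dpi, with 87.9 against 96.2 CPM and 91.4 against 92.5 CPM. At 21 dpi the values were 85.1 against 92.5 CPM and 89.8 against 92.5 CPM. The tenocyte-like class was not made of the same clusters at each time, so values within it also compare clusters. A cluster led by Angptl7 and Col22a1 held 694 of its 741 cells in the uninjured Gli1+ library and 201 of 203 in the uninjured Gli1- library. At 7 dpi 719 Gli1+ cells lay in a cluster led by Chodl and Ptx4, while 228 of 343 Gli1- cells still lay in the Angptl7 cluster, and at 21 dpi 2216 Gli1+ and 1740 Gli1- cells lay in a cluster led by Cilp2 and Matn4. The Angptl7 cluster held 490 and 216 cells at 21 dpi. Within it Acvr1 went from 113 [104, 121] to 101 CPM [88.6, 114] (Gli1+) and from 134 to 94.4 and 107 CPM (Gli1-, at 7 and 21 dpi). Outside the tenocyte-like class, clusters with at least 50 Gli1+ cells before injury and at 21 dpi had higher values at 21 dpi. That led by Sema3e and Cyp2f2 went from 57.1 [49.2, 65.9] to 73.7 CPM [69.1, 78.6]. The intervals overlapped in those led by C7 and Inmt (68.2 to 80.4 CPM) and by Apod and Gpc3 (83.7 to 130 CPM). Chondrocyte-like cells, of which the 21 dpi libraries alone had 50 or more, held 86.8 CPM (Gli1+) and 102 CPM (Gli1-) of Acvr1, log2 ratios of 0.00 [-0.15, 0.15] and 0.19 [0.06, 0.31] over mesenchymal-like cells. Schwann-like cells of the Gli1- sort, the highest of the named types, held 158, 179 and 112 CPM. Their log2 ratios over mesenchymal-like cells were 1.49 [1.26, 1.71], 0.97 [0.73, 1.20] and 0.32 [-0.04, 0.65], so that at 21 dpi the interval held 0. Blood endothelial-like cells ranged from 54.7 to 88.2 CPM, mural-like cells from 49.9 to 85.3 CPM and basal epidermal-like cells from 73.3 to 84.6 CPM, ranges that overlapped each other and that of mesenchymal-like cells. Myeloid-like cells, at 20.8 CPM, and lymphoid-like cells lay below all of these.

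**Figure D1:**
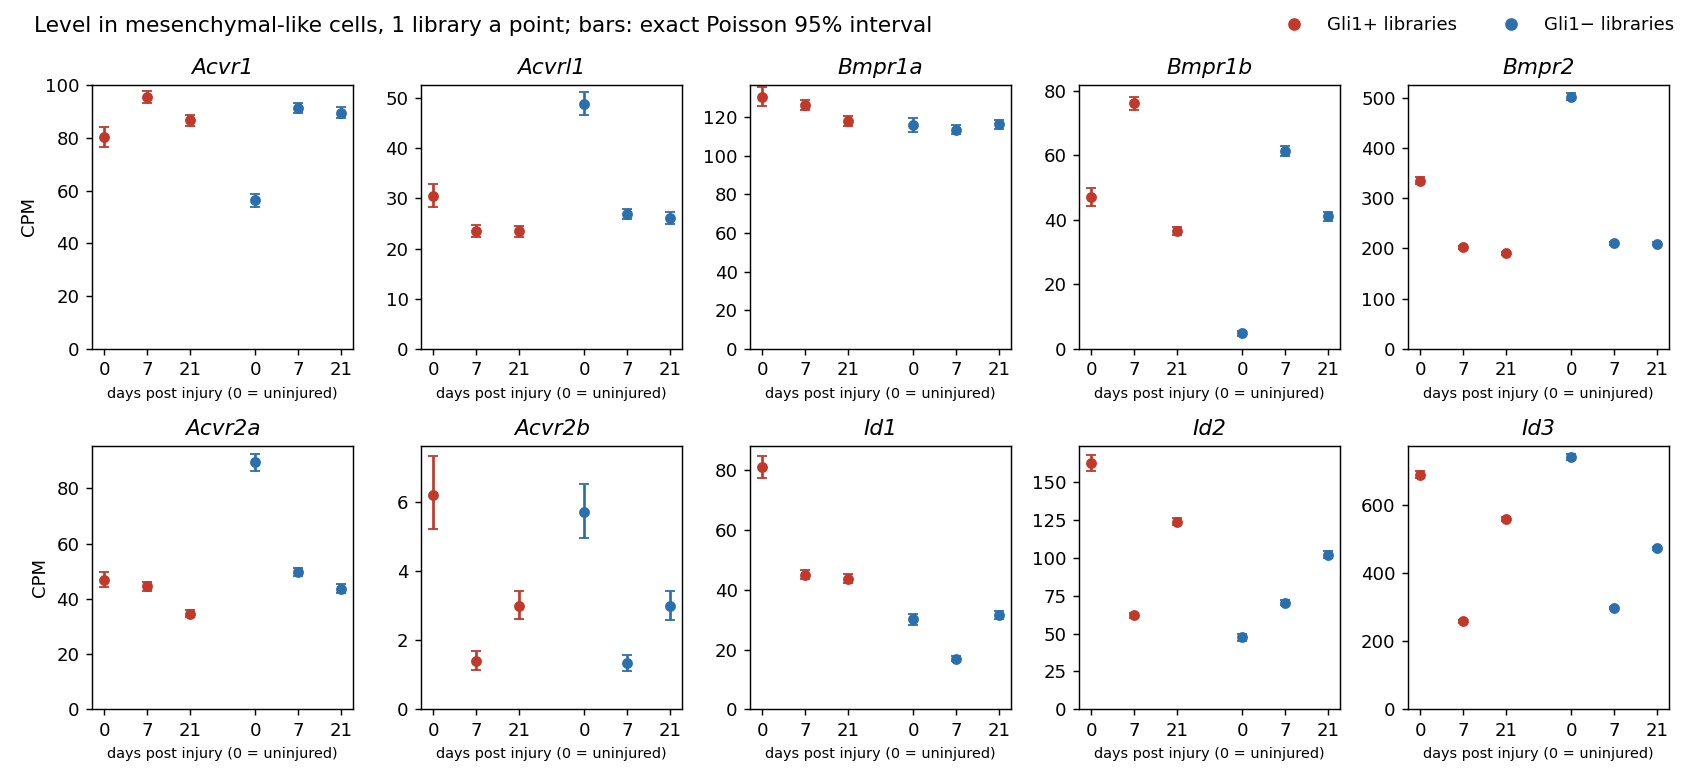
Level of each gene in mesenchymal-like cells, in CPM on axes that start at 0, against days post injury (0 marks uninjured), red for Gli1+ and blue for Gli1- libraries; bars are exact Poisson 95% intervals of 1 library. Bmpr2 is highest in both uninjured libraries, Id3 is lowest at 7 dpi in both sorts, and Bmpr1b of the Gli1- cells goes from 4.75 CPM to 61.4 and 41.1 CPM.

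Bmpr1b, a BMP receptor known for its part in limb cartilage, had the widest range by fold of the 10 genes over the mesenchymal-like sums. Mesenchymal-like cells held 88.8% to 98.0% of its UMIs in each library. Of the UMIs of all genes they held from 22449941 of 63952057 (uninjured Gli1+) to 98226011 of 107887022 (Gli1-, 7 dpi). For Bmpr1b, Gli1+ mesenchymal-like cells stood at 47.0 CPM [44.2, 49.9], 76.1 [74.1, 78.2] and 36.5 [35.1, 37.9], and Gli1- cells at 4.75 [4.07, 5.51], 61.4 [59.8, 62.9] and 41.1 [39.6, 42.6]. The uninjured Gli1- cells stood far below the other 5. In Gli1- cells the log2 ratio over uninjured was 3.69 [3.47, 3.92] at 7 dpi and 3.11 [2.89, 3.34] at 21 dpi. In Gli1+ cells it was 0.70 [0.60, 0.79] and -0.36 [-0.47, -0.26], the second of which was 0.09 with the other scaling described further on. Male cells alone gave 3.87 [3.61, 4.13] for Gli1- at 7 dpi, but 0.13 [-0.01, 0.27] for Gli1+, and female cells gave 0.35 [0.20, 0.50] for Gli1+ at 21 dpi.

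Splitting the mesenchyme showed where the transcript lay. Tenocyte-like cells, named from tendon matrix and transcription factor markers, held 143 CPM [134, 153] of Bmpr1b in the uninjured Gli1+ library and 66.2 CPM [52.6, 82.3] in the uninjured Gli1- library. Mesenchymal-like cells of no subtype held 9.34 and 2.60 CPM there, and adventitial stem fibroblast-like cells 1.98 and 2.77 CPM. Before injury, then, tenocyte-like cells were the highest, with log2 ratios of 3.94 [3.64, 4.26] and 4.67 [4.19, 5.16] over the cells of no subtype. At 7 dpi the cells of no subtype held 78.0 CPM (Gli1+) and 62.6 CPM (Gli1-), log2 ratios of 3.06 [2.77, 3.37] and 4.59 [4.25, 4.96] over uninjured, and at 21 dpi 36.1 and 38.2 CPM. The cells of no subtype also lay mostly in other clusters after injury. A cluster led by C7 and Inmt held 661 of the Gli1+ cells before injury and 381 at 21 dpi. Within it Bmpr1b went from 11.1 [8.60, 14.0] to 23.0 CPM [16.6, 31.1]. Tenocyte-like cells of the Gli1+ sort held 45.2 CPM at 7 dpi and 49.2 CPM at 21 dpi, log2 ratios of -1.67 [-1.90, -1.44] and -1.54 [-1.67, -1.42]. Those of the Gli1- sort held 52.7 and 56.9 CPM, with intervals of the ratio that held 0. Within the Angptl7 cluster alone the Gli1+ value at 21 dpi was also lower than before injury, while the Gli1- value was higher. Bmpr1b went from 153 [143, 163] to 70.5 CPM [60.4, 81.7] in its Gli1+ cells and from 66.7 [53.0, 82.9] to 119 CPM [102, 139] in its Gli1- cells, with 59.1 CPM [48.3, 71.6] in the latter at 7 dpi. Over the Gli1+ sort, values at both times were lower in tenocyte-like cells and higher in cells of no subtype than before injury.

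**Figure D2:**
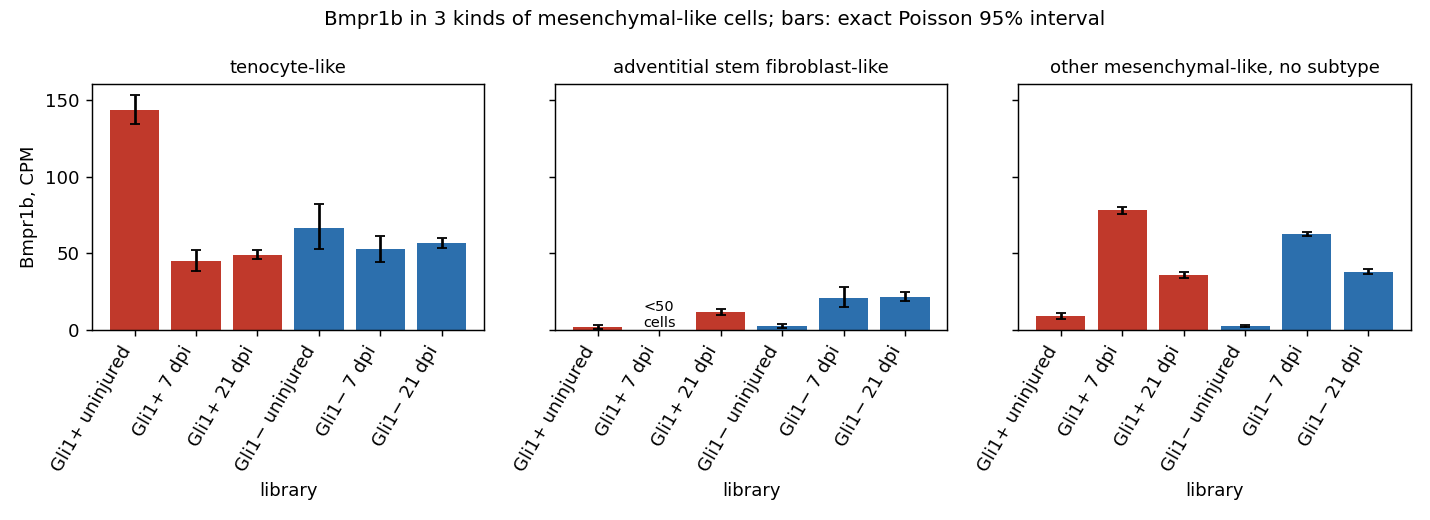
Bmpr1b level in CPM (axis from 0) by library in tenocyte-like cells, adventitial stem fibroblast-like cells and mesenchymal-like cells of no subtype; bars are exact Poisson 95% intervals, and a sum of fewer than 50 cells is left out. Before injury the tenocyte-like values stand alone; at 7 dpi the cells of no subtype hold 78.0 and 62.6 CPM.

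In cells thinned to 2000 UMIs, 16.2% [13.6, 19.0] of the uninjured Gli1+ tenocyte-like cells had a Bmpr1b UMI (29.8% unthinned), 7.59% at 7 dpi and 7.60% at 21 dpi. Over all Gli1- mesenchymal-like cells the share was 0.644% [0.451, 0.890], 7.67% [7.09, 8.28] and 6.20% [5.65, 6.79], or 1.69%, 28.6% and 20.01% unthinned at medians of 5781, 11478 and 8820 UMIs. Lymphoid-like cells, at a median of 7778 UMIs, gave 0.0669% after thinning, and blood endothelial-like cells gave 0% to 1.25% over the 6 libraries at medians of 2436 to 6216 UMIs. The shares of 7 dpi mesenchyme lay far above this background, and the uninjured Gli1- share lay within its range over the 6 libraries. Within the uninjured Gli1- library itself the types differed. Blood endothelial-like cells there had 4 Bmpr1b UMIs, 0.207% of their type I receptor UMIs, and mesenchymal-like cells had 175, or 2.10%. Among mesenchymal-like clusters with 50 cells of a library, Bmpr1b of Gli1- cells at 7 dpi ranged from 6.78 to 142 CPM, the upper end in 94 cells of a cluster led by Saa3 and Mmp13. The 7 dpi mesenchyme of each sort lay mostly in clusters of its own. Of the 4389 cells of the largest cluster 4042 came from the Gli1- library of 7 dpi, with 78.9 CPM of Bmpr1b, and 3303 of the 3314 cells of another came from its Gli1+ counterpart, with 105 CPM.

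Acvrl1, the type I receptor for BMP9 and BMP10 on endothelium, was highest in blood endothelial-like cells, with 148, 116 and 93.1 CPM for Gli1+ and 154, 96.2 and 83.8 CPM for Gli1-. Mesenchymal-like cells held 30.5, 23.5 and 23.4 CPM and 48.9, 26.9 and 26.1 CPM. Every endothelial value lay above every mesenchymal one, with log2 ratios of 1.65 to 2.30 within libraries. In Gli1- mesenchymal-like cells Acvrl1 was lower after injury, with log2 ratios of -0.86 [-0.95, -0.77] and -0.91 [-0.999, -0.811]. In Gli1+ cells the ratios were -0.38 [-0.50, -0.24] and -0.38 [-0.51, -0.25]. With the other scaling they were -0.08 and 0.08, and over all kept cells 0.03 and 0.10. All 6 endothelial markers had UMIs in mesenchymal-like cells of every library, summing to 21.7 to 37.2 CPM for Gli1+ and 117, 55.8 and 64.7 CPM for Gli1-. Acvrl1 had 190 to 1199 UMIs per 100 UMIs of the endothelial cadherin gene Cdh5 in mesenchymal-like cells and 10.6 to 18.1 in blood endothelial-like cells in the same libraries, the higher ratio always in mesenchymal-like cells.

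Bmpr1a, a broadly used type I receptor of BMP2 and BMP4, was nearly level in mesenchyme and low in endothelial-like cells. Gli1+ mesenchymal-like cells held 131 CPM [126, 136], 126 [124, 129] and 118 [116, 121], and Gli1- cells 116 [112, 119], 114 [112, 116] and 116 [114, 119], with log2 ratios after injury between -0.15 and 0.00, or between 0.08 and 0.31 with the other scaling. Blood endothelial-like cells stood at 7.17, 35.7 and 7.30 CPM and at 9.98, 19.2 and 6.17 CPM. Their log2 ratio to mesenchymal-like cells ran from -4.24 to -1.82. Mural-like cells, also of the vessel wall, held 144, 121 and 121 CPM and 153, 109 and 125 CPM, near or above the mesenchymal levels. The 2 values above 10 CPM came from 7 dpi, where blood endothelial-like cells numbered 103 and 823. Among the sums of a type in a library, the highest level was that of basal epidermal-like cells of the uninjured Gli1+ library, at 201 CPM.

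Among the UMIs of the 4 type I receptor genes, Acvrl1 made up 47.0% to 70.3% in blood endothelial-like cells and 7.31% to 21.6% in mesenchymal-like cells, and Bmpr1a 3.36% to 14.5% and 38.7% to 51.3%. Acvr1 stayed between 25.0% and 32.8% in mesenchymal-like cells. Bmpr1b went from 2.10% to 20.9% and 15.04% of them for Gli1- and was 16.3%, 23.7% and 13.8% for Gli1+. These shares count captured 3′ ends, whose capture may differ between genes, so they compare cells rather than genes.

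**Figure D3:**
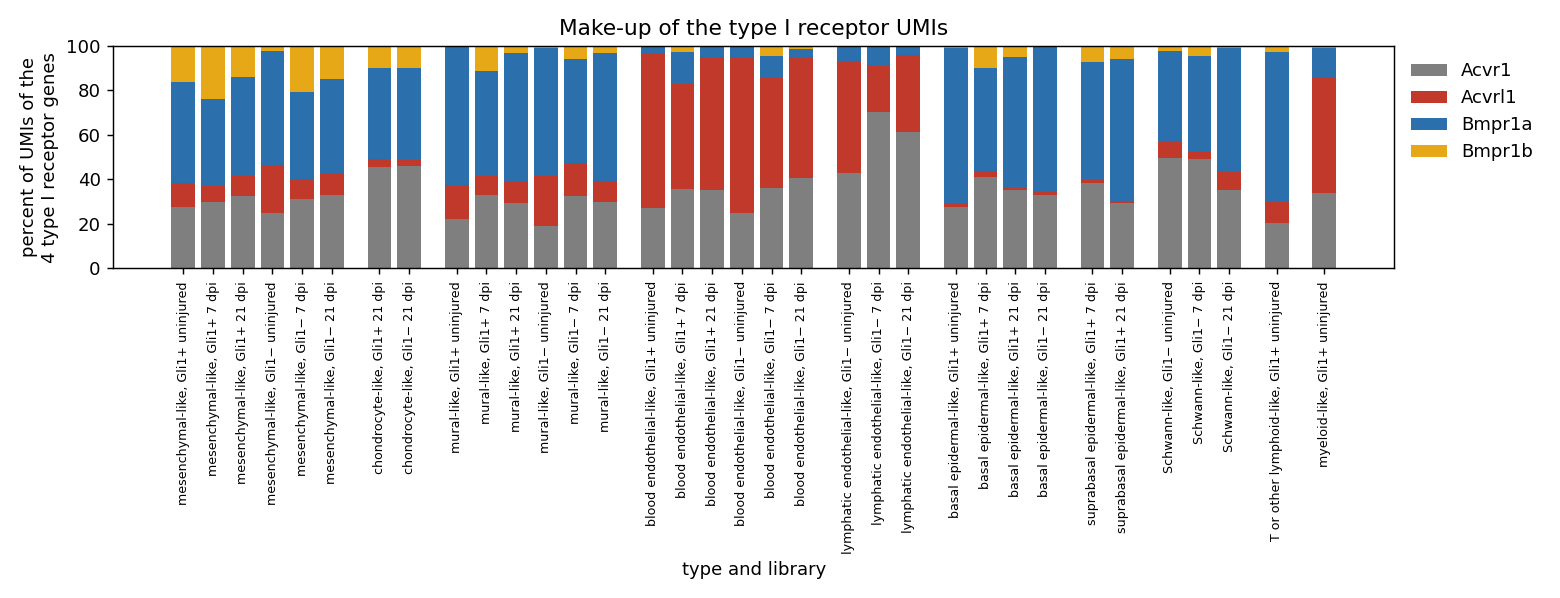
Share of the UMIs of the 4 type I receptor genes that each gene holds, in percent, by cell type and library (sums of at least 50 cells). Acvrl1 makes up 47.0% or more in every blood endothelial-like sum, and Bmpr1a 38.7% or more in every mesenchymal-like sum.

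Of the type II receptors, Bmpr2 and Acvr2b had lower levels in mesenchyme after injury in both sorts, and Acvr2a in the Gli1- sort. Bmpr2, the type II receptor dedicated to BMP ligands, stood at 335 CPM [328, 343], 202 [199, 206] and 190.0 [187, 193] in Gli1+ mesenchymal-like cells. Gli1- cells held 503 [496, 510], 210.2 [207, 213] and 209.9 [207, 213]. Both uninjured libraries lay above all 4 injured ones. The log2 ratios were -0.73 [-0.77, -0.69] and -0.82 [-0.86, -0.78] for Gli1+, and -1.26 [-1.29, -1.23] at both times for Gli1-. Male cells gave -0.62 and -1.32 at 7 dpi, and female Gli1+ cells -0.88 at 21 dpi. Tenocyte-like cells went from 344 to 241 and 176 CPM (Gli1+) and from 384 to 236 and 189 CPM (Gli1-), but within the Angptl7 cluster Bmpr2 went from 349 to 279 CPM (Gli1+) and from 385 to 295 CPM (Gli1-) at 21 dpi. Other clusters with at least 50 Gli1+ cells before injury and at 21 dpi went different ways. The cluster led by Sema3e and Cyp2f2 went from 381 to 223 CPM and that led by C7 and Inmt from 287 [274, 301] to 296 [272, 322]. A cluster led by Apod and Gpc3 went from 270 [244, 299] to 437 CPM [349, 541]. Mural-like cells went from 403 to 212 and 230 CPM and from 439 to 218 and 240 CPM. Blood endothelial-like cells, in which BMPR2 is known for its mutations in pulmonary arterial hypertension, held 490, 370 and 538 CPM and 475, 401 and 549 CPM. Their 21 dpi values lay above the uninjured ones, and over all kept Gli1+ cells the log2 ratios of Bmpr2 were 0.01 and 0.02.

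Acvr2a, which binds activins as well as BMPs, stood at 46.9, 44.6 and 34.6 CPM in mesenchymal-like cells of the Gli1+ sort and at 89.4, 49.8 and 43.8 CPM in those of the Gli1- sort. Only the uninjured Gli1- value stood apart. The Gli1- cells lay in different clusters at each time, with 2938 of 5783 before injury in a cluster led by Ccl11 and Abca8a that held 154 and 172 later. Over Gli1- mesenchymal-like clusters with at least 50 cells of a library, the median level was 60.6, 53.2 and 61.2 CPM. The highest of them at each time, led by C7 and Inmt, went from 161 to 83.1 and 108 CPM. Over all mesenchymal-like cells the log2 ratios were -0.84 [-0.91, -0.78] and -1.03 [-1.10, -0.96] for Gli1-, and -0.08 [-0.18, 0.03] and -0.44 [-0.54, -0.34] for Gli1+, which turned to 0.22 and 0.02 with the other scaling. In male Gli1+ cells at 7 dpi the ratio was 0.16 [-0.03, 0.36]. Tenocyte-like cells held less of it than cells of no subtype in all 6 libraries, at 17.9 to 27.8 against 39.2 to 102.8 CPM, and chondrocyte-like cells held 12.9 and 17.8 CPM. Lymphoid-like cells, low in Acvr1 and in Bmpr1a (22.0 CPM), had 77.5 CPM of Acvr2a. Acvr2b, the scarcest of the 10, stood at 6.19 CPM [5.21, 7.31], 1.39 [1.13, 1.69] and 2.998 [2.62, 3.41] for Gli1+ and at 5.70 [4.96, 6.53], 1.33 [1.12, 1.58] and 2.98 [2.60, 3.41] for Gli1-, from 99 to 227 UMIs each. The lowest values were those of 7 dpi in both sorts, with log2 ratios over uninjured of -2.16 [-2.54, -1.78] and -2.10 [-2.42, -1.77].

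**Figure D4:**
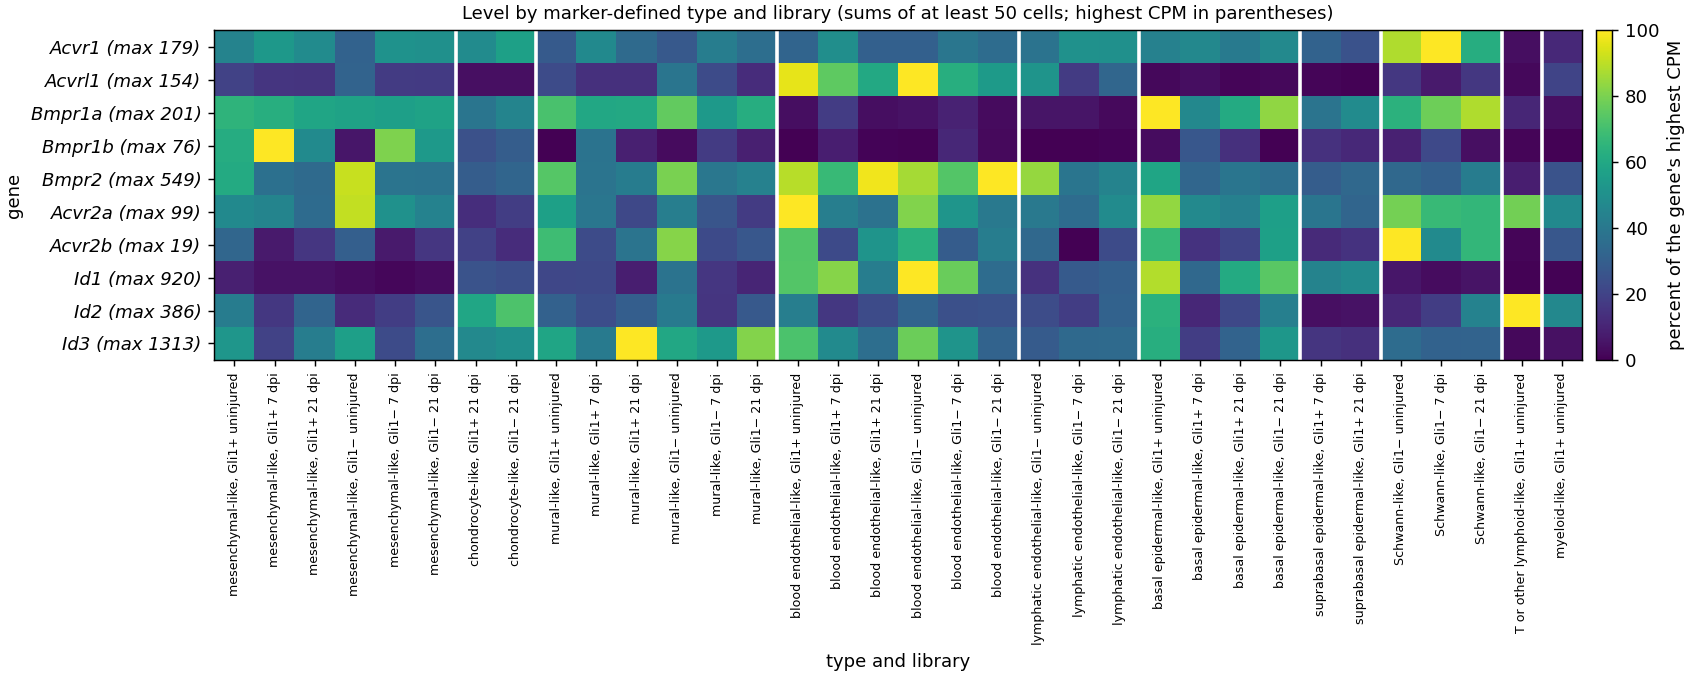
Level of each gene by cell type and library, as percent of the gene's highest CPM among the sums of at least 50 cells (the highest CPM stands beside the name). Acvrl1 is brightest in blood endothelial-like cells, Id1 in blood endothelial-like and basal epidermal-like cells and Bmpr1b in mesenchymal-like cells, while Bmpr1a is dark in both kinds of endothelial-like cells.

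The Id genes are direct targets of BMP-activated SMADs, which bind GC-rich elements such as GGCGCC, while SMAD4 binds sites with GTCTG. RefSeq promoters (GRCm38.p6) were matched by symbol for 8 of the 10 genes, and Id1 and Acvrl1 had none. The 250 bases before the start of Id2 (chr12:25096093-25096342, minus strand) and Id3 (chr4:136143572-136143821, plus strand), the Id genes with a match, are shown. Capitals mark matches on either strand to GGCGCC, to its variant GGAGCC (read as GGCTCC on the other strand) and to GTCTG (read as CAGAC on the other strand):
Id2: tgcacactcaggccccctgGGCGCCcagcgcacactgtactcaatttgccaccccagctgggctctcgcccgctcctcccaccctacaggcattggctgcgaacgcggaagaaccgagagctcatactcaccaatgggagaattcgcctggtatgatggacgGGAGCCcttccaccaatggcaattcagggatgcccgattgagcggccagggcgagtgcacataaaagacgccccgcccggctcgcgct
Id3: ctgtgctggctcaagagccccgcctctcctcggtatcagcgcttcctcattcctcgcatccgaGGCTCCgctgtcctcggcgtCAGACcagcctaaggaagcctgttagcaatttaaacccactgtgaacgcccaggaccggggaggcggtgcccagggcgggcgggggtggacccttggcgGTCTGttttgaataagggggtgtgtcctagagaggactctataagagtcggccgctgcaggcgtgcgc
Id2 held 1 GGCGCC and 1 GGAGCC, and Id3 held 1 GGAGCC and 2 GTCTG. Of 27025 promoters of this length, 9.54% held GGCGCC, 25.7% held GGAGCC and 42.1% held GTCTG, so a match is a description and no evidence of binding.

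Id3 was lowest at 7 dpi in mesenchymal-like cells of both sorts. Gli1+ cells held 689 CPM [678, 700.1], 258.5 [255, 262] and 559 [553, 564], and Gli1- cells 740.4 [732, 749], 298 [295, 302] and 473 [468, 478]. By CPM the uninjured libraries were the highest and the 7 dpi libraries the lowest, but the Gli1+ ratio at 21 dpi turned to 0.16 with the other scaling and 0.62 over all kept cells. The log2 ratio over uninjured was -1.41 [-1.45, -1.38] and -1.31 [-1.34, -1.29] at 7 dpi, and -0.30 [-0.33, -0.28] and -0.65 [-0.67, -0.62] at 21 dpi. Male cells alone gave -1.56 and -1.34 at 7 dpi. Gli1+ cells lay mostly in different clusters at each time, and clusters with at least 50 of them before injury and at 21 dpi went different ways. Id3 went from 660 [639, 680] to 895 CPM [859, 933] in the Angptl7 cluster. In the cluster led by Apod and Gpc3 it was at 1398, 732 and 1935 CPM. It went from 801 [779, 824] to 815 CPM [774, 858] in that led by C7 and Inmt, and from 494 to 411 CPM in that led by Sema3e and Cyp2f2. In cells thinned to 2000 UMIs, 55.1%, 35.9% and 54.9% of Gli1+ and 53.3%, 39.6% and 52.3% of Gli1- mesenchymal-like cells had an Id3 UMI. The 2 sorts had nearly the same course in this share. At 7 dpi tenocyte-like cells held 505 and 553 CPM, against 243 and 291 CPM in cells of no subtype. Mural-like cells, the smooth muscle cells and pericytes of vessels, held 772, 540 and 1313 CPM and 788, 705 and 1068 CPM, highest at 21 dpi in both sorts. The 3 markers of cycling cells summed to 115 and 91.7 CPM in 7 dpi mesenchyme against 3.37 to 20.8 CPM in the other libraries, and their part in the Id3 level was not tested.

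Id1 was high in endothelium and epidermis. Blood endothelial-like cells held 675, 752 and 390.2 CPM and 920, 710 and 326 CPM, and basal epidermal-like cells of the Gli1+ sort 813, 309 and 563 CPM. Gli1+ mesenchymal-like cells held 80.8 CPM [77.2, 84.7], 45.1 [43.5, 46.6] and 43.7 [42.2, 45.2], and Gli1- cells 30.1 [28.3, 31.9], 17.0 [16.1, 17.8] and 31.5 [30.2, 32.9]. All 3 Gli1+ values lay above all 3 Gli1- values. The log2 ratios over uninjured were -0.84 [-0.93, -0.76] and -0.89 [-0.97, -0.81] for Gli1+, and -0.83 [-0.94, -0.72] and 0.07 [-0.04, 0.17] for Gli1-. Few cells carried a disproportionate part of the Gli1+ level, most of which remained without them. A mesenchymal-like cluster led by Luzp2, Gatm and Sfrp5 held 459 of the 1815 Id1 UMIs in 40 cells before injury, 483 of 3214 in 99 cells at 7 dpi and 452 of 3306 in 101 cells at 21 dpi. Without this cluster, left out after its values were seen, Gli1+ cells held 61.3 CPM [58.0, 64.6], 38.5 [37.0, 39.9] and 37.9 [36.5, 39.3], with log2 ratios of -0.67 [-0.77, -0.58] and -0.69 [-0.79, -0.60], nearer to 1.5-fold. Gli1- cells held 30.02, 16.9 and 30.5 CPM without it. RNA of other types was measured in the same sums. In the uninjured Gli1- library mesenchymal-like cells had 117 Id1 UMIs per 100 Cdh5 UMIs and blood endothelial-like cells 84.7, and at 7 dpi they had 212 and 81.6. In the Gli1+ library of 7 dpi the 5 basal and the 5 suprabasal epidermal markers all had UMIs in mesenchymal-like cells. They summed to 918 and 1509 CPM, against 5.29 to 114 and 69.3 to 264 CPM elsewhere, and the uninjured Gli1- cells had Krt5, Krt14 and Krt15 at 0. In that Gli1+ library there were 8.26 Id1 UMIs per 100 UMIs of the keratin gene Krt10 in mesenchymal-like and 4.09 in suprabasal epidermal-like cells. The part of such RNA in the Id1 levels was not tested.

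Id2 was lower than before injury in Gli1+ and higher in Gli1- mesenchymal-like cells, with the exception that the Gli1+ ratio at 21 dpi was 0.07 with the other scaling described further on. Gli1+ mesenchymal-like cells held 162 CPM [157, 168], 62.0 [60.2, 63.8] and 124 [121, 126], and Gli1- cells 47.4 [45.2, 49.7], 70.2 [68.5, 71.8] and 102 [99.6, 104]. The uninjured Gli1+ value was the highest and the uninjured Gli1- value the lowest. The log2 ratios were -1.39 [-1.45, -1.33] and -0.39 [-0.45, -0.34] against 0.57 [0.49, 0.64] and 1.10 [1.03, 1.18]. These cells lay mostly in different clusters at each time. Within the Angptl7 cluster Id2 went from 234 [222, 246] to 278 CPM [257, 299] in Gli1+ cells at 21 dpi, and was at 194, 160 and 214 CPM in Gli1- cells. Gli1+ cells went from 185 to 158 CPM in the C7 cluster, from 109 to 99.1 in the Sema3e cluster and from 33.6 to 31.2 in the Apod cluster. Lymphoid-like cells, whose innate members are known to need Id2, held 386 CPM. Markers of other types that hold Id2 were measured in the mesenchymal-like sums: the lymphoid markers summed to 18.4, 4.98 and 23.9 CPM for Gli1+ and 0.299, 4.92 and 25.3 CPM for Gli1-, and the chondrocyte markers to 86.5, 219 and 244 CPM and 49.95, 220 and 267 CPM. All 7 chondrocyte markers had UMIs in every library, while Cd3e, Cd3g and Cd3d, the T cell receptor complex genes among the 6 lymphoid markers, were at 0 in the Gli1- library of 21 dpi. The part of such RNA in the Id2 levels was not tested. Tenocyte-like cells held more Id2 than cells of no subtype in every library, for example 258 against 145 CPM in the uninjured Gli1+ library and 194 against 48.7 CPM in the uninjured Gli1- library.

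Chondrocyte-like cells of 21 dpi, 315 for Gli1+ and 388 for Gli1-, had all 3 Id genes above the level of mesenchymal-like cells. Id1 was at 237 and 221 CPM, log2 ratios of 2.44 [2.34, 2.54] and 2.81 [2.71, 2.91]. Id2 was at 228 and 279 CPM, and Id3 at 618 and 652 CPM with ratios of only 0.15 [0.09, 0.20] and 0.46 [0.41, 0.51]. Of the receptors, Acvrl1 (6.34 and 6.11 CPM), Acvr2a, Bmpr1a and Bmpr1b were lower than in tenocyte-like cells of the same libraries, with Bmpr1b at 19.0 and 22.4 CPM and log2 ratios of -1.37 [-1.71, -1.05] and -1.34 [-1.63, -1.07]. The leading genes of this cluster also included the bone genes Ibsp and Bglap.

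Counted at a log2 ratio of at least 0.58, or 1.5-fold, the 10 genes stood beside 14268 genes with a mean of at least 1 CPM over the 6 mesenchymal-like sums, a limit that all 10 passed. At 7 dpi over uninjured in Gli1+ cells, 1 was higher (Bmpr1b) and 5 were lower (Bmpr2, Acvr2b, Id1, Id2 and Id3), where 21.1% of all genes were higher and 32.4% lower. At 21 dpi 0 were higher and 3 lower (Bmpr2, Acvr2b and Id1), against 14.4% and 34.7%. In Gli1- cells at 7 dpi 2 were higher (Acvr1 and Bmpr1b) and 6 lower (all type II receptors, Acvrl1, Id1 and Id3), against 23.0% and 25.6%. At 21 dpi 3 were higher (Acvr1, Bmpr1b and Id2) and 5 lower (all type II receptors, Acvrl1 and Id3), against 20.2% and 26.7%. The median log2 ratio of the 10 was -0.55, -0.39, -0.84 and -0.32, against -0.18, -0.30, -0.06 and -0.10 over all genes. The 3 lower genes of 10 in Gli1+ cells at 21 dpi were thus a share near that of all genes. Just outside the limit lay Id2 in Gli1- cells at 7 dpi, at 0.57.

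Trimmed mean of M-values (TMM) factors, which scale libraries to a common bulk of genes, raise every log2 ratio of these 4 comparisons by 0.29, 0.46, 0.10 and 0.19. Under them the lower genes in Gli1+ cells became 3 at 7 dpi (Acvr2b, Id2 and Id3) and 1 at 21 dpi (Acvr2b), while in Gli1- cells they were 6 and 4 (without Id3). The higher genes were 1 and 0 in Gli1+ cells, and 3 (with Id2, at 0.67) and 3 in Gli1- cells. The shares of all genes above are by CPM, and none is given with these factors. In Gli1+ cells at 21 dpi the ratios of Acvrl1, Bmpr1b, Acvr2a, Id2 and Id3 turned to values of 0.02 to 0.16 and that of Bmpr1a to 0.31. At 7 dpi those of Bmpr1a and Acvr2a in Gli1+ cells turned to 0.24 and 0.22, and that of Bmpr1a in Gli1- cells to 0.08. The directions of Acvr1, Bmpr2, Acvr2b and Id1 in Gli1+ cells held under both scalings. Between the uninjured sorts the factors change every ratio by -0.24.

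**Figure D5:**
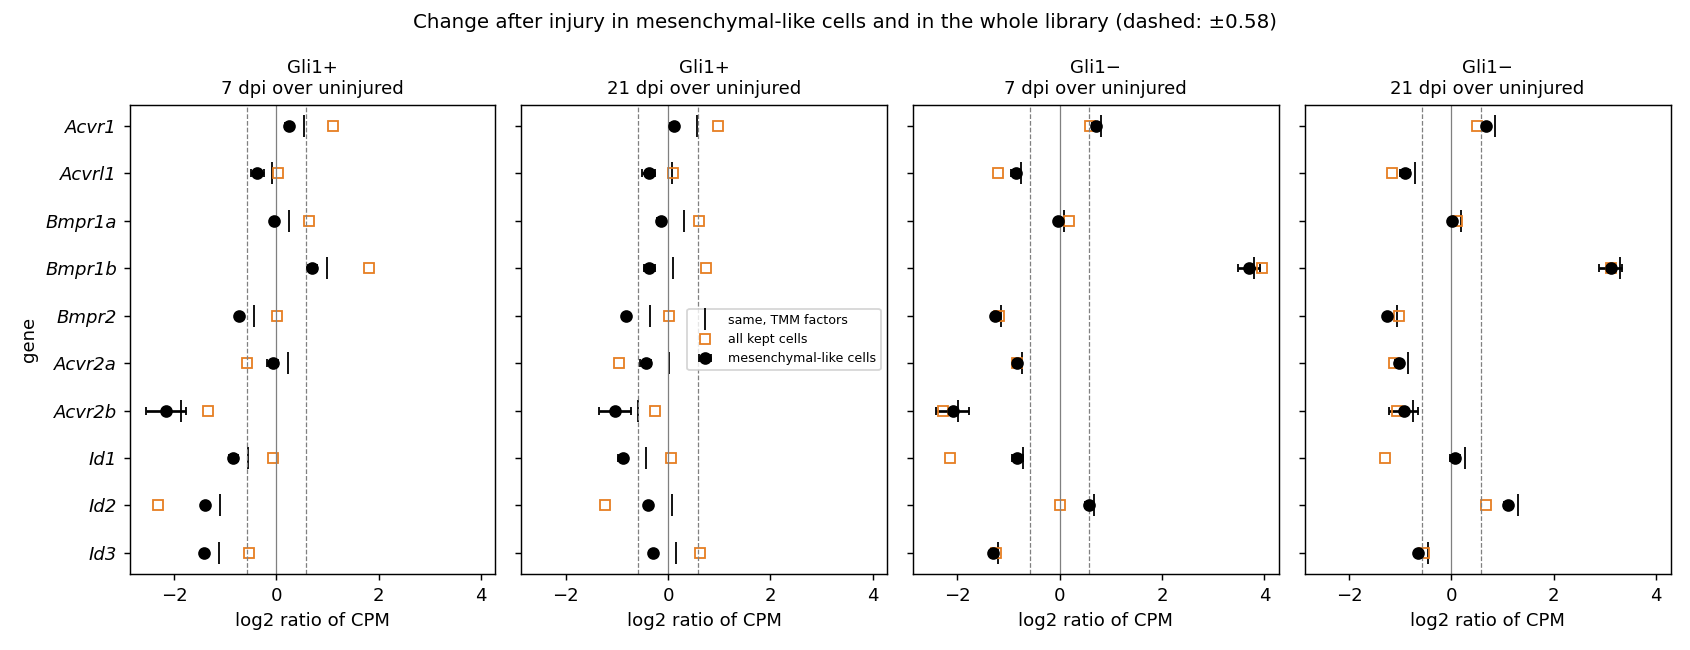
Log2 ratio of CPM after injury over uninjured (x axis) for the 10 genes, in mesenchymal-like cells (dots with 95% counting intervals), in the same cells with TMM factors (ticks) and over all kept cells (squares); dashed lines mark 0.58 in each direction. In Gli1+ cells at 7 dpi Acvr1 lies at 0.25 in mesenchymal-like cells, at 0.55 with TMM factors and at 1.11 over all kept cells.

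The comparison of Gli1+ with Gli1- mesenchymal-like cells asked how far the sorted cells differ in these genes. In the uninjured pair, Xist without Y-linked UMIs was found in 60.3% of Gli1+ and 0% of Gli1- mesenchymal-like cells. Cntn5 stood at 1.80 and 654 CPM over kept cells of that pair. There the sort cannot be told apart from a difference in animals, also within cells of 1 sex. Before injury 3 genes were higher in Gli1+ cells (Bmpr1b, Id1 and Id2, with log2 ratios of 3.31 [3.07, 3.55], 1.43 [1.32, 1.54] and 1.78 [1.69, 1.86]) and 3 lower (Acvrl1, Bmpr2 and Acvr2a, at -0.68, -0.58 and -0.93), where 20.7% of all genes were higher and 8.98% lower. Male cells alone gave 4.03 for Bmpr1b, 1.17 for Id1 and 1.85 for Id2, and Id1 was at 1.03 without the Luzp2 cluster. Tenocyte-like cells, in which Bmpr1b and Id2 were highest before injury, were 741 of the 2416 mesenchymal-like cells in the Gli1+ and 203 of 5783 in the Gli1- library. At 7 dpi 1 gene was higher (Id1, 1.41 [1.32, 1.496]) and 0 lower, against 4.56% and 3.52% of all genes, in the pair of libraries that differed in keratin RNA. Without the Luzp2 cluster this Id1 ratio was 1.19. At 21 dpi 0 were higher and 0 lower, against 1.94% and 3.39%, and Id1 was nearest at 0.47 [0.39, 0.55]. These comparisons share libraries with those over time and are not independent of them.

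Of 40 further genes of the pathway, 35 passed the limit of 1 CPM. In Gli1+ mesenchymal-like cells 5 were higher and 19 lower at 7 dpi, and 4 and 17 at 21 dpi. In Gli1- cells 5 were higher and 16 lower, then 7 and 12. The shares of all genes were 21.1% higher and 32.4% lower, 14.4% and 34.7%, 23.0% and 25.6%, and 20.2% and 26.7% in the same order, and lists this short were not tested against them. Their medians were -0.70, -0.58, -0.40 and -0.42, against the medians of all genes given above. Smad1, Smad5 and Smad4 stayed within 1.5-fold in all 4 comparisons, with Smad1 at 98.4, 93.0 and 86.3 CPM for Gli1+ and 118, 89.7 and 81.5 CPM for Gli1-. Smad9, under the limit of 1 CPM and so left out of the counts, was at 1.83 [1.31, 2.48], 0.701 [0.520, 0.924] and 0.541 CPM [0.389, 0.735] for Gli1+, from 41 to 50 UMIs, and at 0.597, 0.733 and 0.784 CPM for Gli1-. Among 8 inhibitors, 4 were lower and 1 higher in Gli1+ cells at 7 dpi, and 3 and 0 at 21 dpi. In Gli1- cells 1 was lower and 1 higher, then 0 and 1. Smad6, an inhibitory SMAD that BMP signals induce, was at 34.7, 7.12 and 14.2 CPM for Gli1+ and 8.42, 7.33 and 14.1 CPM for Gli1-. As with Id1 and Id2, its uninjured Gli1+ value was the highest of the 6. Fkbp1a, whose protein holds type I receptors inactive, was past the fold at 7 dpi in both sorts, going from 142 to 243 and 207 CPM and from 157 to 258 and 215 CPM.

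The ligand list had medians of -2.81 and -2.02 for Gli1+ and -2.35 and -1.42 for Gli1- at 7 and 21 dpi, the lowest of the 7 lists but for Gli1- cells at 21 dpi, where the co-receptors stood at -1.63. In it 5 of the 7 ligands past the limit of 1 CPM were lower in each of the 4 comparisons. Bmp4 went from 90.3 to 8.38 and 22.3 CPM in Gli1+ cells and from 156 to 15.5 and 19.7 CPM in Gli1- cells. Bmp2 went from 160 to 19.9 and 60.01 CPM and from 143 to 21.2 and 53.3 CPM. Inhba, which encodes the activin A subunit that ACVR2A and ACVR2B bind, was highest at 21 dpi, at 140 and 164 CPM against 34.8 to 57.5 CPM earlier. The BMP antagonist gene Grem1 was at 0.757, 11.2 and 72.9 CPM in Gli1+ cells, and Gli1- cells held 0.0271, 4.05 and 87.6 CPM. Of the 6 antagonist genes, 4, 2, 3 and 1 were lower and 2, 2, 2 and 3 higher in the 4 comparisons. The shares of all genes higher were 21.1%, 14.4%, 23.0% and 20.2%, and those lower stand in the next sentence. Of 5 co-receptor genes past the limit, 3, 4, 4 and 4 were lower and 1, 0, 1 and 1 higher in the 4 comparisons, where 32.4%, 34.7%, 25.6% and 26.7% of all genes were lower. Eng, the partner of ACVRL1, was at 31.6, 18.8 and 18.6 CPM and 71.5, 25.0 and 23.1 CPM. Tgfbr1, a type I receptor for TGF beta, was at 180, 48.7 and 86.1 CPM and 106, 38.7 and 79.0 CPM, lowest at 7 dpi like Id3.

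Over 34 sums of a type in a library, the genes whose level on the log2(CPM + 1) scale was most like that of each member were taken from genes with a mean of at least 5 CPM. For Acvrl1 they were Eng, Slfn5 and Sema6b, with Pearson r of 0.95, 0.94 and 0.93. For Bmpr1a they were Fat1, Tead3 and Hoxc6 (0.93, 0.91 and 0.90) and for Bmpr1b Aldh1l2, Fbn2 and Col12a1 (0.87, 0.86 and 0.85). For Acvr1 they were Cttn, Iftap and Naxe (0.87, 0.87 and 0.86), and for Id1 Hoxa7, Efna1 and Epha2 (0.91, 0.88 and 0.86). Id3 was nearest to Osmr (0.91) and Bmpr2 to Dennd5b (0.87), while the nearest genes of Acvr2a and Id2, Cpt1a and Msi2, reached 0.76 and 0.73. Within the group, Acvrl1 and Bmpr2 went together with an r of 0.70 and Acvrl1 and Bmpr1a ran against each other with an r of -0.53. The sums share libraries and types, so these values are descriptions.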

How the data were processed

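Cells of Achilles tendon were measured by scRNA-seq (Chromium Single Cell 3′ v3) in 6 libraries, 1 per condition. The authors deposited counts of UMIs for 33696 genes per called cell barcode, without normalization. The submitters' processing notes name Cell Ranger 3.1.0, STAR and mm10, while the matrix headers name cellranger 9.0.0, so the annotation release is not given in the sources used here and no coordinates come from the files. Promoters are those of RefSeq, GRCm38.p6.

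Kept cells had 200 or more genes, 1000 or more UMIs and a log10 gene number of 0.7 or more times the log10 UMI number, with mitochondrial UMIs up to 5% and hemoglobin UMIs up to 5%. Scrublet (scanpy 1.11.5) replaced DoubletFinder, and the highest scores were removed at 0.8% per 1000 cells. The 6 libraries were clustered together without batch correction (2000 variable genes by dispersion without the members, markers and pathway genes, 30 components, 20 neighbors, Leiden 0.10.2 at resolution 1.0, 38 clusters). A cluster took the name of a fixed marker list with a mean log2 ratio of at least 1 and 3 raised markers detected in 10% of cells, and clusters whose leading genes went against it stayed unnamed. Clusters of mesenchyme were split further into tenocyte-like, adventitial stem fibroblast-like and the rest. The naming thresholds, and leaving unnamed a cluster led by pigment cell genes, were set after seeing the data. Names rebuilt here may differ from those of the study.

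Levels are summed UMIs per 1000000 with exact Poisson 95% intervals, log2 ratios have conditional binomial intervals, and shares of cells thinned to 2000 UMIs have exact Clopper-Pearson intervals. These cover counting error only. The ratios were tested on simulated Poisson counts, which hold counting error only and no spread between animals. No test between conditions was made. edgeR 4.0.16 in R 4.3.3 gave TMM factors and nothing else. The genes named were all 10 members, any gene of the pathway lists, and for each member the 3 most alike genes. The members and lists were chosen with earlier results of these data known. Alternatives were other scalings, cell names, filters, folds, cells of 1 sex and, added after seeing the data, leaving out the cluster of highest Id1.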

Additional observations from a re-analysis of the deposited data

Results flagged for a closer look

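In mesenchymal-like cells the 2 sorts moved in opposite directions over time for 2 genes, with counting intervals that left out 0 on both sides. With 1 library per condition this difference was not tested. For Id2 the Gli1+ log2 ratio minus the Gli1- log2 ratio was -1.96 at 7 dpi and -1.496 at 21 dpi. With TMM factors the Gli1+ ratio of Id2 at 21 dpi was 0.07, so that the opposite direction is lost there, while at 7 dpi it was -1.10 against 0.67. Within the Angptl7 cluster the Gli1+ level of Id2 went from 234 to 278 CPM at 21 dpi. For Bmpr1b at 21 dpi the difference was -3.48. There the Gli1+ ratio was 0.09 with TMM factors and 0.35 in female cells, and mesenchymal-like cells of no subtype had higher levels than before injury in both sorts, with log2 ratios of 1.95 [1.65, 2.27] and 3.88 [3.53, 4.25]. The cells of no subtype lay mostly in other clusters by then. In the cluster led by C7 and Inmt the Gli1+ level of Bmpr1b went from 11.1 to 23.0 CPM.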

How the results depend on the processing

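Past 1.5-fold stood 6 of the 10 genes in Gli1+ mesenchymal-like cells at 7 dpi and 3 at 21 dpi, 8 and 8 in Gli1- cells, and 6, 1 and 0 between the sorts at the 3 times. These counts stayed within 1.5 times of themselves in all but 11 values. A log2 ratio of at least 1 left 3, 1, 4, 4 and 3 of the first 5 counts, which take higher and lower genes together. Of all 14268 genes, 12.03%, 7.296%, 13.31%, 11.76% and 11.3% were higher at that limit, in the same order. Those lower were 18.64%, 17.49%, 13.88%, 14.23% and 4.303%, and the counts were not tested against these shares. With no cell filter and no doublet removal the Gli1+ count at 7 dpi was 3. The Gli1+ count at 21 dpi was 1 with TMM factors and 6 over all kept cells. Between the sorts at 7 dpi it was 2 in thinned cells, and at 21 dpi 1 in thinned cells and 1 with the mean over equally scaled cells. Of 32 ratios past the fold, 376 values under alternatives kept the direction in 372. Smaller ratios did not enter, so those that changed sign with TMM factors or within cells of 1 sex are not among these. The values reuse the same 6 libraries and are not independent. Leaving out the cluster of highest Id1, chosen after seeing the data, left all 7 counts as they were. The 4 that reversed were all taken over all kept cells: Bmpr2 in Gli1+ cells at 7 dpi (0.011) and 21 dpi (0.020), Id1 in Gli1+ cells at 21 dpi (0.058) and Id1 between uninjured sorts (-0.91). That alternative adds the other cell types by construction. Values in cells of 1 sex could not be had in 8 cases, for fewer than 50 cells. No analysis paired by animal was possible because the labels give no replicate numbers that tie libraries together. A fit of the sorts with time as a block, which would take the 3 times as repeats of 1 difference, was not run. Depth limits Acvr2b the most, with 99 to 227 UMIs per mesenchymal-like sum.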
